A study of Mus musculus with 12 samples.

Results

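The first postnatal week was followed in ovaries of Lhx8 knockout mice, with 3 arrays at postnatal day 7 (P7) set against 3 at birth (P0), 6 of the 12 arrays of the series, chosen by their titles. The other 6 arrays hold wild-type ovaries, 3 at P7 and 3 at P0, and served to test where the week differed between genotypes. Each array holds total RNA from the ovaries of 1 animal, hybridised to an Illumina BeadChip with 45281 probes. Knockout and wild-type mice alike were kept on a mixed background of 129, C57BL/6 and SF1 mice. The knockout is a mutation of the whole animal, with no transgene or Cre driver named in the labels, and no source used here names its allele.

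Lhx8 encodes a LIM homeodomain transcription factor of oocytes. Around birth the germ cells of the mouse ovary, which have entered meiosis, leave their clusters and are each enclosed by pregranulosa cells to form primordial follicles. In the following days a first wave of oocytes starts to grow, laying down the zona pellucida and maternal stores, while their granulosa cells divide. Mice without Lhx8 are known for a failure of this step and for early loss of oocytes.

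The deposited values are z scores, centred and scaled on each array, and were quantile-normalized over the 12 arrays before any comparison. Differences below are P7 minus P0 in z units with the SE from limma, over 3 animals in each group. No fold change can be read from them, since it is unknown whether logs were taken first. The words rise, fall and change are kept for genes whose limma p, adjusted over all 12210 genes tested, was under 0.05. The P7 scores were deposited with 2 decimals and the P0 scores with up to 6, so every difference between ages is also one between exports, and the effects of age and export cannot be told apart. The difference between the knockout week and the wild-type week sets 2 such steps against each other. Where the lower group was above background on no array, the difference is also given as a bound ("at least") if that keeps the direction. The bound does not keep it for Zp3, Amh, Star and Cyp11a1. Where neither group was above background, no bound is given, and any difference named there lies within background.

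In knockout ovaries 6042 of the 12210 genes changed over the week, or 49.5%, with 3403 higher at P7 (27.9%) and 2639 lower (21.6%). In wild-type ovaries 49.9% changed over the same week, 25.1% higher and 24.8% lower. A share of this size means that the count of any gene group has to be read against these figures. Changes above 1 z unit were far fewer, 159 higher and 113 lower. The knockout week differed from the wild-type week at 1589 genes, or 13%, of which 873 lay above it (7.15%) and 716 below it (5.86%). Replicate arrays correlated with r between 0.987 and 0.993 among knockout P7 ovaries and between 0.973 and 0.980 among knockout P0 ovaries, against 0.918 to 0.933 between the ages. More probes stood above background at P7, 47.5% ± 1.43 (SD, n = 3), than at P0, 30.2% ± 1.59, in the knockout. The background level itself was lower on the knockout P7 arrays (−0.403, −0.417 and −0.376) than on the knockout P0 arrays (−0.043, 0.076 and −0.006). How much of the smaller falls near background, such as those of Lhx8, Ctrb1 and Dmrt1, goes with this shift was not tested. In 1697 of the called genes the lower group was below background, 1527 of them among the rises. The split of rises and falls depended on scaling. Of all calls 56.3% were rises, against 68.9% on the deposited scores. Scaling to the median and the median absolute deviation (MAD scaling) gave 87.2%. These scalings moved the median difference of all genes to 0.170 and 1.147, where quantile normalization left it at 0.040. On the deposited scores 5269 of the 12210 genes were called higher and 2373 lower, and with MAD scaling 6818 higher and 999 lower. For the difference between the weeks, the deposited scores called 957 above and 996 below. MAD scaling called 6520 above and 433 below. A list's counts under these scalings have to be read against these figures.

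The tissue is labelled as oocytes, but the protocols describe whole ovaries, and the arrays carry somatic transcripts. Amhr2, the receptor for anti-Müllerian hormone on granulosa cells, scored 4.08, 4.06 and 4.03 at P7, against 3.72, 3.79 and 3.69 at P0. Lhx8 itself scored −0.33, −0.23 and −0.15 at P7, against 0.30, 0.18 and 0.26 at P0 in the knockout, a fall of 0.48 ± 0.15 (SE, limma adjusted p = 0.0141). Wild-type arrays averaged 0.97 at P7 and 1.30 at P0, so that every knockout array lay below the wild-type means. The call was lost without knockout P7 replicate 1 (−0.44, adjusted p = 0.0544). Lhx8 lay near background at both ages in the knockout, and the background level was itself lower at P7. The Lhx8 week did not pass the test of a difference between genotypes (−0.16, adjusted p = 0.661). No source used here says whether the probe lies in deleted sequence, so these values do not check the labels.

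Genes that mark germ cells fell over the week in knockout ovaries. Of 18 germ-cell genes tested, 16 fell (88.9%, against 21.6% of all genes) and none rose (also 0 at an unadjusted p under 0.05), and their median difference was −0.73, against 0.040 over all genes. In 2 of the 18 neither knockout group was above background. Dazl, an RNA-binding protein gene needed for germ cells to enter meiosis, scored 0.17, 0.05 and 0.19 at P7, against 2.68, 2.55 and 3.12 at P0. The ages did not overlap, as at 57.8% of all genes tested (31.7% higher and 26.1% lower at P7), and the fall of 2.64 ± 0.12 (limma adjusted p = 3.16e-09) was 1 of the 15 steepest of any gene. Ddx4, the germ-cell RNA helicase, scored −0.27, −0.30 and −0.27 at P7, against 0.32, 0.69 and 0.65 at P0 (−0.83 ± 0.09, adjusted p = 7.16e-06). Taf7l, a germ-cell relative of a general transcription factor subunit, fell by 2.51 ± 0.17, beside a fall of 2.53 in the wild type, and the difference between the weeks did not pass (0.01, adjusted p = 0.978), though on within-array ranks it did, with the knockout above (27.99 percentile units, adjusted p = 2.69e-05). In such bulk samples fewer cells of a type and less RNA per cell cannot be told apart.

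Tex19.1 and Tex19.2, neighbouring genes expressed in germ cells of the mouse and known for holding retrotransposons in check, set the knockout week apart from the wild type. Tex19.1 scored 0.16, 0.24 and 0.08 at P7, against 2.46, 2.67 and 2.75 at P0, a fall of 2.46 ± 0.12. Its wild-type means were 1.49 at P7 and 1.50 at P0, and the difference between the weeks was −2.45 (adjusted p = 5.16e-07). Tex19.2 fell by 2.55 ± 0.10 in the knockout, with wild-type means of 0.76 at P7 and 0.70 at P0, a difference between weeks of −2.61 (adjusted p = 7.19e-08). For both genes the knockout means were below the wild-type means at P7 and above them at P0. Of the 18 germ-cell genes, 8 had a knockout week below the wild-type week (44.4%, against 5.86% of all genes), 1 of them below background in both knockout groups, and none had one above it (0 at an unadjusted p under 0.05), and with MAD scaling 8 lay below and 2 above. Dppa5a, an RNA-binding protein gene of germ cells and early embryos, fell by 0.70 ± 0.20 in the knockout, whereas its wild-type means were 4.21 at P7 and 2.91 at P0 (difference between weeks −2.00, adjusted p = 0.00037, which MAD scaling turned to 1.78 in its own units, adjusted p = 0.252).

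Meiotic genes fell together with the germ-cell markers. Of 20 meiotic prophase genes, 12 fell (60.0%, against 21.6% of all genes) and none rose (0 at an unadjusted p under 0.05), with a median of −0.48. In 3 of the 20 neither knockout group was above background. Smc1b, the meiosis-specific subunit of cohesin, scored −0.11, −0.07 and −0.12 at P7, against 2.30, 2.14 and 2.63 at P0 (−2.46 ± 0.13). Stag3, another meiotic cohesin subunit, fell by 1.64 ± 0.15, and Syce3, of the central element of the synaptonemal complex, by 1.93 ± 0.14. Spo11, the nuclease that makes meiotic breaks, fell by 0.86 ± 0.11 and Sycp1 by 0.45 ± 0.07 (at least 0.40). Mnd1 (0.11 ± 0.18) and Psmc3ip (0.12 ± 0.14), partners in strand exchange, did not pass the test, though both were higher on the deposited scores (0.48 and 0.57, adjusted p = 0.0232 and 0.00312) and with MAD scaling (2.10 and 2.50, adjusted p = 0.00486 and 0.00324). The wild-type week had a median of −0.35 for the same genes, and the weeks differed at 4 of the 20, each with the knockout below, a lean that MAD scaling took away with 3 above and 3 below.

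The piRNA pathway, which silences transposons in germ cells, moved in the same way, with 12 of 18 genes lower (66.7%, against 21.6% of all genes), 1 higher and a median of −0.59. In 3 of the 18 neither knockout group was above background. Ddx4, Piwil2, Tdrd1 and Asz1 are in this list and in the germ-cell list, so the counts share genes. Dnd1 and Lin28a are likewise both in the germ-cell list and in that of primordial germ cells and pluripotency. Gpat2, an outer mitochondrial membrane protein needed for piRNA production, scored 0.44, 0.41 and 0.48 at P7, against 2.63, 2.26 and 2.77 at P0 (−2.11 ± 0.15). Mov10l1, the helicase of piRNA precursors, fell by 1.65 ± 0.11 and Tdrd9, a Tudor domain helicase, by 1.84 ± 0.12. Tdrd7, which also acts outside the germ line in the lens, was the 1 that rose (0.30 ± 0.10, adjusted p = 0.0194), and its call was lost without knockout P7 replicate 1 or P0 replicate 3 (0.27 each). Of 14 genes of primordial germ cells and pluripotency 8 fell (57.1%), with a median of −0.38, and the 1 called higher was below background in both groups. Dppa4, a chromatin protein of pluripotent cells, fell by 0.94 ± 0.13, and Klf4, a pluripotency transcription factor also active in somatic cells, by 0.64 ± 0.11.

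Among 10 oocyte transcription regulators 6 fell (60.0%, against 21.6% of all genes). The median of the 10 was −0.36, close to the −0.38 of the wild-type week. The falls include Lhx8 itself and Taf4b (−0.14), which was below background in both knockout groups. Sohlh1, which acts upstream of Lhx8 in oocyte differentiation, scored 2.07, 2.18 and 2.13 at P7, against 4.07, 4.26 and 4.38 at P0 (−2.11 ± 0.13), where the wild-type means were 3.49 at P7 and 4.53 at P0. Figla, the activator of zona pellucida genes, fell by 1.65 ± 0.16 in the knockout and its wild-type means were 1.64 at P7 and 2.71 at P0. Foxo3, which holds primordial oocytes at rest, fell by 0.49 ± 0.13. Nobox, a homeobox regulator of oocyte genes, did not pass the test (−0.06 ± 0.10, adjusted p = 0.624). Trp63, the guardian of the oocyte genome, moved the other way. Its scores were 0.12, 0.18 and 0.14 at P7, against −0.27, −0.07 and −0.47 at P0, a rise of 0.41 ± 0.15 (at least 0.14, adjusted p = 0.0287), where wild-type ovaries averaged 1.88 at P7 and 2.39 at P0 (difference between weeks 0.93, adjusted p = 0.00988). The Trp63 call was lost without any 1 of 5 of the 6 knockout arrays, all but P0 replicate 2, with values of 0.31 to 0.43.

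**Figure D1:**
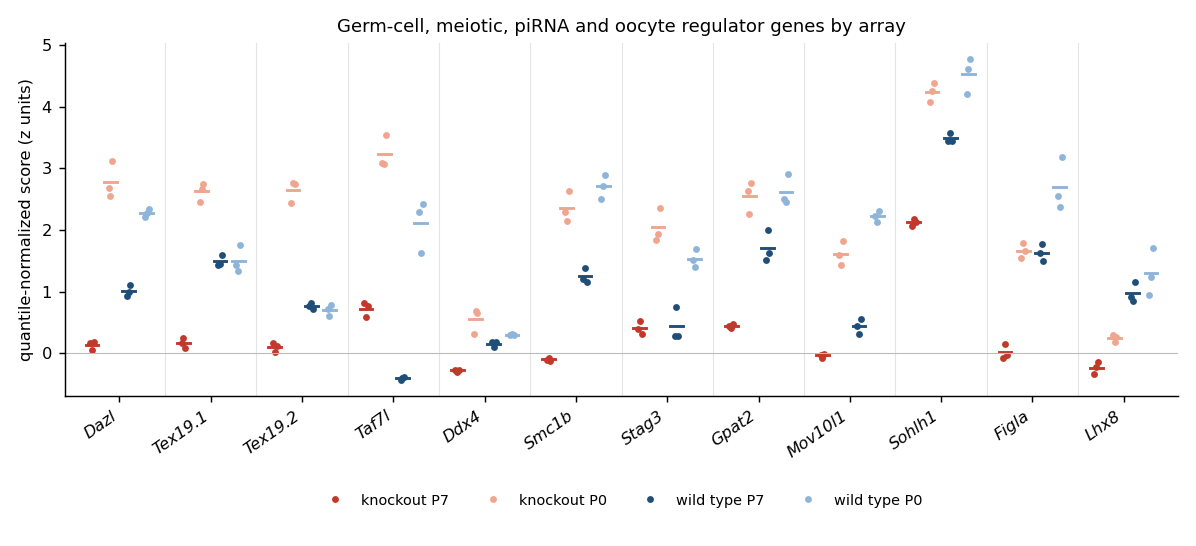
Quantile-normalized scores in z units (vertical axis) of germ-cell, meiotic, piRNA and oocyte regulator genes. Each point is 1 array, each line the mean of 3 arrays, for knockout P7, knockout P0, wild type P7 and wild type P0 from left to right; the knockout P7 arrays of Dazl lie between 0.05 and 0.19, below the P0 arrays at 2.55 to 3.12.

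Oocyte growth genes encode the zona pellucida, oocyte-secreted factors and maternal stores, and most rose in the wild type but not in the knockout. Of 31 tested, 4 rose and 6 fell in the knockout week (12.9% and 19.4%), with a median of −0.01, whereas in the wild-type week 25 rose and 1 fell, with a median of 1.35. The knockout counts moved with the scaling, to 8 higher and 11 lower on ranks, 3 higher and 8 lower on the deposited scores and 4 higher and 1 lower with MAD scaling. The knockout week lay below the wild-type week at 25 of the 31 and above it at none (0 also at an unadjusted p under 0.05). Of these 25, 12 were below background in both knockout groups and were tested only because of the wild-type arrays. Their difference mainly reflects the wild-type week, and the count is a description. The other 13 came from the 19 genes above background on at least 1 knockout array. Of these 13, Bcl2l10 and Aurkc were above it on only 1 knockout array, at P7. They too were tested only because of the wild-type arrays, so 13 of 19 is a description as well. On ranks 14 lay below and 1 above, on the deposited scores 19 below and 2 above, and with MAD scaling 15 below and 8 above. Zp3, a zona pellucida sperm receptor, scored −0.18, 0.01 and −0.15 at P7, against −0.52, −0.56 and −0.21 at P0, a difference of 0.32 ± 0.24 that did not pass (adjusted p = 0.271, though 0.0392 without wild-type P0 replicate 2). Wild-type Zp3 averaged 4.29 at P7 and 2.39 at P0, and the weeks differed by −1.58 (adjusted p = 0.00713), a call that was lost on the deposited scores (−0.71, adjusted p = 0.25) and a sign that turned on ranks (17.05 percentile units, adjusted p = 0.192) and with MAD scaling (1.50, adjusted p = 0.371). Bmp15, a growth factor that oocytes secrete, was below background in both knockout groups, with wild-type means of 3.02 at P7 and 0.48 at P0 (difference between weeks −2.63, adjusted p = 7.66e-06). In 12 of the 31 genes neither knockout group was above background, which leaves no bound to give there.

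A small number of growth genes did rise in the knockout. Padi6, of the cytoplasmic lattices of oocytes, scored 1.06, 1.69 and 1.44 at P7, against −0.21, −0.31 and −0.47 at P0, a rise of 1.73 ± 0.25 (at least 1.39, adjusted p = 5.25e-05). Nlrp5, of the subcortical maternal complex, scored 1.80, 2.15 and 2.29 at P7, against 0.25, 0.04 and 1.50 at P0 (1.48 ± 0.30, adjusted p = 0.000791; other probes 0.09 and 1.16), and knockout P0 replicate 3 stood apart from the other P0 arrays. For these 2 genes the week did not pass the test of a difference between genotypes, at 0.54 (adjusted p = 0.327) and 0.52 (adjusted p = 0.445), and the P7 means of the wild type were 5.61 for Padi6 and 5.38 for Nlrp5. Other scalings did call that difference, with the knockout week above: Padi6 gave 2.73 on the deposited scores (adjusted p = 0.00104), 12.95 with MAD scaling (adjusted p = 3.47e-05) and 33.76 on ranks (adjusted p = 0.00167). Nlrp5 gave 2.72 on the deposited scores (adjusted p = 0.00117) and 13.0 with MAD scaling (adjusted p = 3.58e-05). Gdf9, the other main growth factor of oocytes, rose by 0.86 ± 0.22 (adjusted p = 0.00505), with scores of 0.78, 1.03 and 0.38 at P7, against 0.02, −0.36 and −0.02 at P0. Its rise was smaller than in the wild type (difference −1.72, adjusted p = 0.00291) after quantile normalization, but the sign of that difference turned on the deposited scores (0.23, adjusted p = 0.738), on ranks (15.67, adjusted p = 0.0562) and with MAD scaling (4.99, adjusted p = 0.0109).

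Of the 6 growth genes that fell, all but Pabpc1l (−0.14), which was below background in both knockout groups, had been detected on all 3 arrays at birth. Uchl1, a ubiquitin hydrolase abundant in oocytes, scored 0.82, 0.86 and 0.89 at P7, against 3.34, 2.92 and 3.36 at P0 (−2.35 ± 0.16), while wild-type means were 3.38 at P7 and 3.76 at P0. Dppa3, a maternal protector of imprints, fell by 1.06 ± 0.19, and Ccno, a cyclin-like gene, by 0.90 ± 0.18. Btg4, which later clears maternal mRNA, scored −0.12, −0.18 and −0.13 at P7, against 0.55, 0.58 and 0.55 at P0 (−0.70 ± 0.13), and its wild-type means of 1.53 at P7 and 0.94 at P0 went the other way (difference between weeks −1.30, adjusted p = 0.000602). Tle6, of the subcortical maternal complex, scored 2.75, 2.90 and 2.72 at P7, against 3.17, 3.21 and 3.23 at P0 (−0.41 ± 0.13).

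**Figure D2:**
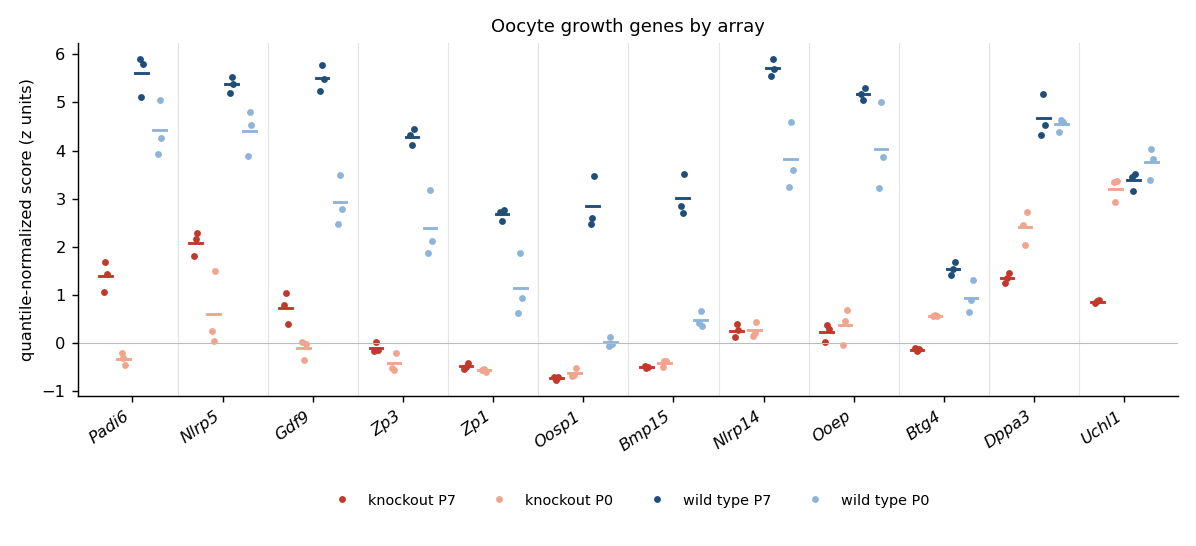
Quantile-normalized scores in z units (vertical axis) of oocyte growth genes, 1 point per array and a line at the mean of 3 arrays, in the order knockout P7, knockout P0, wild type P7 and wild type P0. For Zp3 the knockout arrays of both ages lie between −0.56 and 0.01, below the wild-type means of 4.29 at P7 and 2.39 at P0.

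The start regions of a member that stayed low and of one that rose show what the growth gene promoters hold. The windows are the 250 bases before the annotated start, from RefSeq on build GRCm38.p6, read along the gene's strand, with matches to CANNTG (the E-box bound by basic helix-loop-helix factors such as Figla and Sohlh1) in capitals. Zp3 lies on chromosome 5, plus strand, and Padi6 on chromosome 4, minus strand.
Zp3, chr5:135979855-135980104: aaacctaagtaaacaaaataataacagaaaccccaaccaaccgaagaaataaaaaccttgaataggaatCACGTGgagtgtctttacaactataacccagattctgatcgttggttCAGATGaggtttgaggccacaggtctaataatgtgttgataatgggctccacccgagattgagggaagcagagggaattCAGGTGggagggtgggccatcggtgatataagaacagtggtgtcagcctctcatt
Padi6, chr4:140742644-140742893: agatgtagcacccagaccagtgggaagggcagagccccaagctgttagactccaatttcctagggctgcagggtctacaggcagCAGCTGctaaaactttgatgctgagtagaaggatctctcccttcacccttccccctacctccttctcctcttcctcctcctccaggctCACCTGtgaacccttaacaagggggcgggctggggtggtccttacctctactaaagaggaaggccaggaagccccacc
The printed bases hold 3 such matches in Zp3 and 2 in Padi6. Over the 250 bases before and 50 after the start, searched on both strands, 20 of the 23 growth genes with a RefSeq window held CANNTG (87.0%), against 68.7% of all tested genes, and 4 of 23 held TAATTG (17.4%), a homeodomain element, against 6.1%. These counts describe letters in a window and not binding.

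Granulosa cells nurse the oocyte and make the hormones of the follicle. Genes that mark granulosa cells of growing follicles rose in the knockout, though mostly by less than in the wild type. Of 16 tested, 10 rose (62.5%, against 27.9% of all genes) and 1 fell, with a median of 0.31, while the wild-type median was 1.11. Hsd17b1, which reduces estrone to estradiol, scored 2.36, 2.72 and 1.72 at P7, against 0.30, 0.51 and 0.27 at P0 (1.91 ± 0.23, adjusted p = 1.29e-05), and its wild-type means were 3.25 at P7 and 0.26 at P0. Inha and Inhba, subunits of inhibin and activin, rose by 0.94 ± 0.25 and 0.75 ± 0.17. Nr5a2, an orphan nuclear receptor of granulosa cells, scored 0.99, 0.85 and 0.87 at P7, against 0.42, 0.39 and 0.44 at P0 (0.48 ± 0.09), less than in the wild type (difference −1.21, adjusted p = 4.54e-05). Its other 2 probes gave −0.44 and 0.24.

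Amh is the hormone of small growing follicles. It scored −0.21, −0.44 and −0.43 at P7, against −0.63, −0.58 and −0.49 at P0 in the knockout (0.20 ± 0.07, adjusted p = 0.0337), and averaged 0.52 at P7 and −0.60 at P0 in the wild type, a difference between weeks of −0.92 (adjusted p = 7e-05). The knockout call was lost without P7 replicate 1 (0.13), P0 replicate 1 (0.17) or P0 replicate 2 (0.20). Of the knockout arrays only P7 replicate 1 held Amh above background. Nap1l5 and Ihh were below background in both knockout groups. The knockout week lay below the wild-type week at 10 of these 16 genes, 2 of them below background in both knockout groups, and above it at none (1 at an unadjusted p under 0.05), where MAD scaling gave 4 below and 4 above.

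Genes of early granulosa cells did not move as a group. Of 13 tested, 4 rose (30.8%, near the 27.9% of all genes) and 1 fell, with a median of 0.06. Rspo1, a Wnt agonist of the embryonic ovary, scored 0.34, 0.29 and 0.54 at P7, against 1.42, 1.35 and 1.62 at P0 (−1.08 ± 0.13), beside −1.45 in the wild type. Kitl, the ligand that granulosa cells present to Kit, rose by 0.66 ± 0.10 (at least 0.33), beside 0.59 in the wild type. Gng13, a G protein subunit of pregranulosa cells, scored 4.15, 3.88 and 3.65 at P7, against 4.22, 3.87 and 3.60 at P0, with no difference passing the test (−0.00 ± 0.18, adjusted p = 0.997), although the deposited scores gave a fall of 0.97 (adjusted p = 0.000893), whereas wild-type means were 0.79 at P7 and 2.89 at P0 (difference between weeks 2.10, adjusted p = 0.000124).

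**Figure D3:**
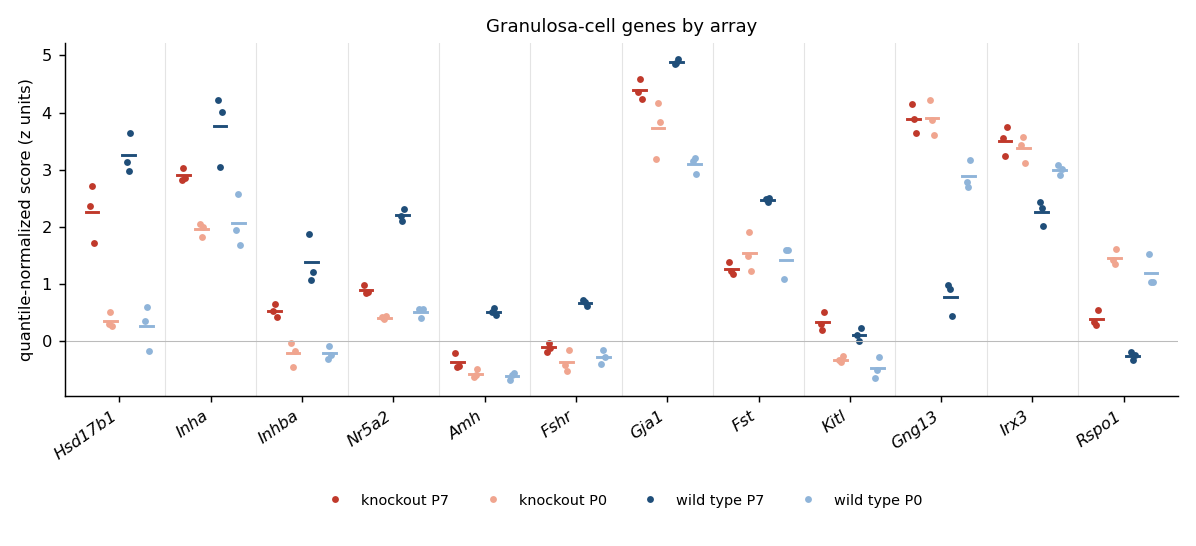
Quantile-normalized scores in z units (vertical axis) of granulosa-cell genes, 1 point per array and a line at the mean of 3 arrays, in the order knockout P7, knockout P0, wild type P7 and wild type P0. Gng13 lies between 3.60 and 4.22 on all 6 knockout arrays, with wild-type means of 0.79 at P7 and 2.89 at P0.

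Smooth muscle genes rose, with the highest median of the lists that had at least 8 genes tested. Of 15 tested, 10 rose (66.7%, against 27.9%) and 1 fell, with a median of 1.03, against 0.20 in the wild-type week. Actg2, the actin of visceral smooth muscle, scored 4.79, 4.54 and 3.40 at P7, against −0.19, −0.46 and −0.55 at P0, a rise of 4.64 ± 0.25 (at least 4.23, adjusted p = 1.51e-08). Wild-type Actg2 averaged 2.24 at P7 and −0.19 at P0, and the weeks differed by 2.21 (adjusted p = 0.00123), though not on ranks (adjusted p = 0.186). Acta2, the actin of vascular smooth muscle, scored 5.96, 5.99 and 5.15 at P7, against 4.03, 3.45 and 3.51 at P0 (2.04 ± 0.20), and its other 3 probes gave 1.0 to 1.55. Mylk, the kinase of myosin light chains, rose by 1.69 ± 0.13, Myh11, the smooth muscle myosin heavy chain, by 1.69 ± 0.17, and Tagln, an actin-binding protein, by 1.29 ± 0.14 (at least 0.69).

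The knockout week lay above the wild-type week at 8 of the 15 smooth muscle genes (53.3%, against 7.15% of all genes) and below it at none (1 at an unadjusted p under 0.05), and on the deposited scores 5 lay above. Myh11 differed by 1.40 (adjusted p = 0.00234), Tagln by 1.11 (adjusted p = 0.00302) and Smtn, smoothelin, by 1.14 (adjusted p = 0.00134). Tpm2 and Pdlim3, 2 further contractile genes among the 15 largest rises, rose by 1.82 ± 0.18 and 1.81 ± 0.19. Myocd, the coactivator that drives smooth muscle genes with the serum response factor, scored 1.59, 1.53 and 0.72 at P7, against 0.59, 0.33 and 0.05 at P0 (0.96 ± 0.19), a gene looked up after the rise of its targets was seen. One array stood apart within the group, since knockout P7 replicate 3 was the lowest P7 array in 9 of the 10 risen genes. The pericyte markers Cspg4 (0.12 ± 0.10, adjusted p = 0.319) and Rgs5 (0.08 ± 0.22, adjusted p = 0.772) did not pass the test, but both were higher on the deposited scores (0.27 and 0.53, adjusted p = 0.00997 and 0.0265) and with MAD scaling (1.38 and 2.30, adjusted p = 0.000187 and 0.00327).

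Matrix genes of the stroma rose as well. Of 31 tested, 14 rose (45.2%, against 27.9% of all genes) and 1 fell. The median was 0.32, against 0.06 in the wild type, and on the deposited scores 14 were higher and 7 lower. Ogn, a small leucine-rich proteoglycan, scored 3.01, 3.30 and 3.34 at P7, against 1.17, 0.83 and 1.23 at P0 (2.14 ± 0.13), beside a rise of 2.36 in the wild type. Its other 2 probes gave 0.34 and 0.50. Lum, a proteoglycan that binds collagen fibrils, rose by 1.61 ± 0.20, and Mfap5, of elastic microfibrils, by 1.35 ± 0.16. Dcn, a related proteoglycan among the brightest genes, rose by 1.04 ± 0.10 after quantile normalization but was lower on the deposited scores (−0.45, adjusted p = 0.033) and with MAD scaling (−0.16, adjusted p = 0.914). Loxl1, which cross-links elastin, scored 4.37, 4.67 and 4.30 at P7, against 3.19, 3.43 and 2.95 at P0 (1.26 ± 0.15), above the wild-type week by 1.09 (adjusted p = 0.00421), though not on ranks (0.96, adjusted p = 0.122). The fibrillar collagen genes Col1a2 (0.43 ± 0.24, adjusted p = 0.15) and Col3a1 (0.13 ± 0.15, adjusted p = 0.49) did not pass the test, but both were higher on the deposited scores (0.82 and 0.48, adjusted p = 0.0081 and 0.0146) and with MAD scaling (3.15 and 2.30, adjusted p = 0.000187 and 0.00226). Tcf21, a transcription factor of ovarian stroma, fell by 0.67 ± 0.13.

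**Figure D4:**
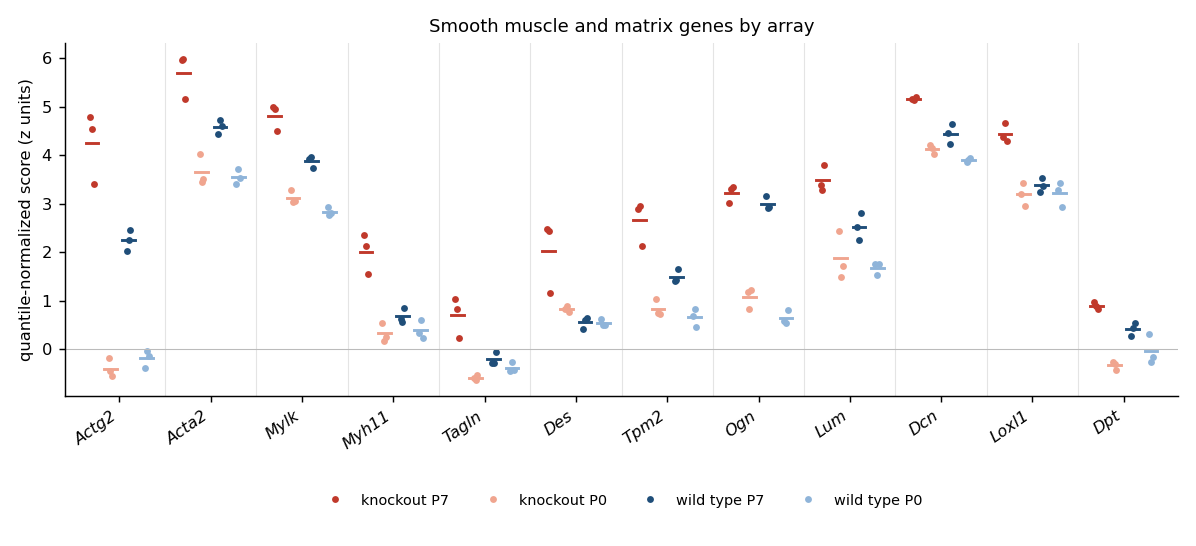
Quantile-normalized scores in z units (vertical axis) of smooth muscle and matrix genes, 1 point per array and a line at the mean of 3 arrays, in the order knockout P7, knockout P0, wild type P7 and wild type P0. Actg2 lies between 3.40 and 4.79 on the knockout P7 arrays and between −0.55 and −0.19 on the knockout P0 arrays.

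Steroid-producing theca cells appear in the ovary with the first growing follicles. Of 11 theca and steroidogenic genes 5 rose (45.5%, against 27.9% of all genes) and none fell (0 at an unadjusted p under 0.05), with a median of 0.28. In 6 of the 11 the lower knockout group was below background. Only 4 were above background on all 6 knockout arrays, and 1 of the rises was among these. Cyp17a1, which makes androgens, scored 0.21, 0.94 and 1.34 at P7, against 0.25, −0.49 and −0.11 at P0 (0.95 ± 0.29, adjusted p = 0.0131), so that the ages overlapped. The call was lost without P7 replicate 3 (0.69) or P0 replicate 2 (0.76). Replicate 3 was the highest P7 array in 4 of the 5 risen genes. Star, which brings cholesterol into mitochondria, rose by 0.28 ± 0.06, and Cyp11a1, which makes pregnenolone from it, by 0.53 ± 0.12. Both were below background at P0, and no bound keeps their direction.

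Other cell types gave smaller or mixed changes, to be read against the 27.9% of rises and 21.6% of falls of all genes. Of 15 surface epithelium and oviduct genes 3 rose, among them the uroplakin gene Upk1b, which scored 1.74, 2.54 and 2.28 at P7, against 1.27, 0.64 and 0.64 at P0 (1.34 ± 0.21) and differed from the wild-type week by 1.39 (adjusted p = 0.00737). Keratin 19 (Krt19) rose by 0.75 ± 0.15, and 2 genes fell. Of 18 leukocyte genes 7 rose (38.9%) and 4 fell, with lysozyme (Lyz2) up by 1.04 ± 0.13 (at least 0.86) and the macrophage growth factor receptor gene Csf1r down by 0.64 ± 0.09, and only 5 of the 18 were above background on all 6 knockout arrays. Of 18 endothelial genes 3 rose and 3 fell, with Pecam1 lower by 0.73 ± 0.14 and Sox18 higher by 0.76 ± 0.14. Mast cell genes split, with 4 of 8 lower and 2 higher, a lean that turned on the deposited scores (1 lower, 3 higher), and knockout P0 replicate 1 was the highest P0 array in all 4 fallen genes. Endothelial genes leaned higher on the deposited scores (7 higher, 2 lower).

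Traces of tissues next to the ovary were looked up after large single rises had been seen. Pnliprp1 and Cela1, a lipase-related protein and an elastase of the exocrine pancreas, were among the 15 largest rises. Pnliprp1 scored 3.69, 4.60 and 3.62 at P7, against 0.49, 0.53 and 0.66 at P0 (3.41 ± 0.36), and Cela1 3.41, 3.79 and 3.42 at P7, against 1.83, 1.82 and 1.02 at P0 (1.98 ± 0.22). Of 9 tested pancreatic acinar genes 4 rose and 3 fell, and the chymotrypsinogen gene Ctrb1 fell (−0.38 ± 0.08), so the enzyme genes did not move together. Ucp1, the uncoupling protein of brown fat, scored 0.48, 0.79 and 0.72 at P7, against −0.02, −0.69 and −0.63 at P0 (1.11 ± 0.13), and 3 of 4 tested brown fat genes rose. Of 5 adipocyte genes 2 rose and 1, Lep, fell (−0.92 ± 0.09). The part of neighbouring tissue in these values was not tested.

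Division genes separated the genotypes. Of 29 mitosis genes 11 rose (37.9%, against 27.9% of all genes) and 2 fell in the knockout week (6.9%, against 21.6%), with a median of 0.20. In the wild-type week 22 were higher and 1 lower, with a median of 0.55. Prc1, which bundles the microtubules of the dividing cell, scored 2.72, 2.58 and 2.58 at P7, against 1.51, 1.76 and 2.10 at P0 (0.84 ± 0.13, adjusted p = 7.46e-05). Cdc20, the activator of the anaphase-promoting complex, scored 2.07, 2.04 and 2.28 at P7, against 1.63, 1.91 and 1.88 at P0 (0.33 ± 0.11, adjusted p = 0.0186), and the call was lost without P7 replicate 3 (0.26) or P0 replicate 1 (0.24). Its other 3 probes ranged between −0.31 and 0.47. Top2a, the topoisomerase of dividing cells, did not pass the test in the knockout (0.01 ± 0.12, adjusted p = 0.935), but was higher on the deposited scores (0.45, adjusted p = 0.00466), with MAD scaling (2.05, adjusted p = 0.00323) and as the mean over its probes (0.26, adjusted p = 0.0201). The knockout week lay below the wild-type week at 8 mitosis genes (27.6%, against 5.86% of all genes) and above it at none (1 at an unadjusted p under 0.05). MAD scaling turned this to 1 below and 9 above, where over all 12210 genes it gave 433 below and 6520 above.

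Mitotic promoters often carry a CCAAT box and the cell cycle homology element TTTGAA, and 2 members that rose show both in their windows. The 250 bases before the start are given from RefSeq on GRCm38.p6, along the gene's strand, with CCAAT or its complement ATTGG and TTTGAA in capitals. Cdc20 lies on chromosome 4, minus strand, and Prc1 on chromosome 7, plus strand, where the second of its 2 annotated starts is shown.
Cdc20, chr4:118437344-118437593: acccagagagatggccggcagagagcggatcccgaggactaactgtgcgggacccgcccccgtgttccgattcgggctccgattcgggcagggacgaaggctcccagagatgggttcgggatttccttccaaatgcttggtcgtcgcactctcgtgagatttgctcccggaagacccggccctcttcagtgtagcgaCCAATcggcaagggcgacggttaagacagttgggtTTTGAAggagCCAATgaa
Prc1, chr7:80294226-80294475: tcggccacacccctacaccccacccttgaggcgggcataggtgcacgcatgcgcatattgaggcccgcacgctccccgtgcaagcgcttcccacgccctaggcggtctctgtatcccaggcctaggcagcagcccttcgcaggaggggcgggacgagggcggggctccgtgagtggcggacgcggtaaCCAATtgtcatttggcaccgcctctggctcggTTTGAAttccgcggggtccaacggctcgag
Over the 250 bases before and 50 after the start, on both strands, 20 of the 25 mitosis genes with a RefSeq window held CCAAT (80.0%), against 42.8% of all tested genes, and 21 of 25 held TTTGAA (84.0%), against 14.4%. These are matches of letters.

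DNA replication genes balanced in the knockout, with 8 of 35 higher and 8 lower (22.9% each) and a median of −0.06. In the wild-type week 17 rose and 1 fell. The weeks differed at 9 genes, each with the knockout below (25.7%, against 5.86% of all genes), which MAD scaling turned to 1 below and 17 above. Dnmt1, which copies DNA methylation at replication and is also stored in growing oocytes, scored 1.50, 1.55 and 1.22 at P7, against 1.76, 1.77 and 2.11 at P0 (−0.46 ± 0.14), while wild-type means were 3.60 at P7 and 2.01 at P0 (difference −2.04, adjusted p = 1.67e-05). With MAD scaling the Dnmt1 values were 0.35 (adjusted p = 0.718) for the knockout and 0.18 (adjusted p = 0.905) for the difference between the weeks, and the knockout call was also lost without P7 replicate 3 (−0.36) or P0 replicate 3 (−0.34). Uhrf1, which guides that enzyme, fell by 0.77 ± 0.11, with −0.00 at its other probe. Rrm2, a subunit of ribonucleotide reductase, rose by 0.67 ± 0.14 (at least 0.35). The balance of rises and falls moved to 20 higher and 3 lower on the deposited scores and to 20 higher and 0 lower with MAD scaling. Both scalings also shifted all genes, to 5269 and 6818 rises among 12210.

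Genes of the fetal growth programme, many of them imprinted, fell. Of 21 tested 12 fell (57.1%, against 21.6%) and 1 rose, with a median of −0.28. Igf2, the fetal insulin-like growth factor, scored 4.45, 4.17 and 4.30 at P7, against 5.40, 5.39 and 5.28 at P0 (−1.05 ± 0.14), and Cdkn1c, a brake on the cell cycle, fell by 1.01 ± 0.11. Mest fell by 1.12 ± 0.17. Nr6a1, the germ cell nuclear factor, scored 0.32, 0.37 and 0.28 at P7, against 1.43, 1.40 and 1.72 at P0 (−1.20 ± 0.12), with wild-type means of 0.95 at P7 and 0.94 at P0 (difference −1.21, adjusted p = 0.00037). The long noncoding RNA gene Rian was the 1 that rose (0.97 ± 0.07, at least 0.34).

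Autophagy delivers cell contents to lysosomes and is the subject of the series. Of 44 autophagy genes 5 rose and 10 fell in the knockout week (11.4% and 22.7%, the falls near the 21.6% of all genes), with a median of −0.03. Map1lc3b, whose product coats autophagosomes, scored 1.25, 1.34 and 1.03 at P7, against 2.11, 1.67 and 1.94 at P0 (−0.70 ± 0.12). Ulk1, the kinase that starts autophagy, fell by 0.83 ± 0.12, and Sqstm1, the receptor p62, by 0.61 ± 0.15. Atg3, an enzyme of the conjugation step, rose by 0.72 ± 0.14, and its other probe gave −0.63. The weeks of the genotypes differed at 5 of the 44, 3 above and 2 below (6.82% and 4.55%, near the 7.15% and 5.86% of all genes). The balance turned to 21 higher and 7 lower on the deposited scores and to 26 higher and 1 lower with MAD scaling. Both scalings shifted all 12210 genes as well, to 5269 higher and 2373 lower and to 6818 higher and 999 lower.

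Of 39 lysosomal genes 15 rose (38.5%, against 27.9% of all genes) and 5 fell (12.8%), with a median of 0.14. Lipa, the acid lipase, scored 1.44, 1.40 and 1.14 at P7, against 0.17, 0.34 and 0.05 at P0 (1.14 ± 0.10), and the cathepsin genes Ctsk (1.12 ± 0.24) and Ctsl (0.87 ± 0.07, at least 0.25) rose with it. Grn, progranulin, rose by 0.85 ± 0.11. The proton pump genes Atp6v1h (−0.58 ± 0.12) and Atp6ap1 (−0.46 ± 0.09) fell, while Atp6v1a rose by 0.46 ± 0.10. Of 8 complement genes 6 rose (75.0%) and none fell (0 at an unadjusted p under 0.05), with a median of 0.49, led by Cd59a (0.88 ± 0.13), which shields cells from lysis, and Cfp (0.73 ± 0.13), properdin.

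The direction of damage and death genes depended on the list and on the scaling. The deposited scores and MAD scaling also shifted all genes, to 5269 and 6818 rises among 12210. Of 33 genes that signal or repair DNA breaks 10 fell (30.3%) and 3 rose, with Brca2 lower by 0.76 ± 0.09 and Fancd2 by 0.72 ± 0.12, both of homologous repair; the other Fancd2 probe gave −0.09. Of 23 p53 target genes 7 rose and 6 fell. Mdm2, the ligase that removes p53, fell by 0.59 ± 0.09, and the pro-apoptotic Phlda3 rose by 0.75 ± 0.18. Of 31 apoptosis genes 7 rose and 5 fell (22.6% and 16.1%, under the 27.9% and 21.6% of all genes). The death receptor gene Fas was higher by 0.54 ± 0.09 (at least 0.13), with its other probe at −0.04. On the deposited scores 13 p53 targets were higher and 6 lower, and 17 apoptosis genes higher and 5 lower, and with MAD scaling 14 higher and 4 lower, and 20 higher and 1 lower. Immediate early and heat shock genes fell in 7 of 18 (38.9%, against 21.6% of all genes) and rose in 2. Jun scored 0.67, 0.55 and 0.91 at P7, against 1.72, 1.23 and 1.62 at P0 (−0.81 ± 0.14), and Atf3 fell by 1.03 ± 0.19. The balance of the repair genes turned to 8 higher and 7 lower on the deposited scores and to 14 higher and 2 lower with MAD scaling, which also turned that of the immediate early genes, to 6 higher and 2 lower.

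Metabolic genes shifted in part, and several lists lay near the 27.9% of rises and 21.6% of falls of all genes. The deposited scores and MAD scaling shifted all genes too, to 5269 and 6818 rises among 12210. Rises and falls made up 33.3% and 27.8% of the cholesterol synthesis genes and 34.8% and 21.7% of the antioxidant and detoxification genes. They made up 27.8% and 22.2% of the clock and glucocorticoid genes and 9.52% and 23.8% of the unfolded protein and amino acid stress genes. Of 24 glycolysis and hypoxia genes 9 fell (37.5%) and 4 rose, among the falls the glycolytic kinase genes Pkm (−1.01 ± 0.17, other probe 0.22) and Pgk1 (−0.95 ± 0.13), and MAD scaling turned this to 12 higher and 2 lower. Of 18 cholesterol synthesis genes 6 rose and 5 fell, with Msmo1, a sterol oxidase, higher by 1.22 ± 0.24 and Insig1, the sterol sensor that restrains the pathway, lower by 1.11 ± 0.14, and the deposited scores gave 10 higher and 4 lower and MAD scaling 11 higher and 2 lower. Of 23 antioxidant and detoxification genes 8 rose and 5 fell, with Gpx3, a secreted glutathione peroxidase, higher by 0.90 ± 0.13 and Gclm, of glutathione synthesis, lower by 0.85 ± 0.10, and on the deposited scores 7 were higher and 10 lower. Among 21 genes of unfolded protein and amino acid stress 5 fell and 2 rose, which turned to 6 higher and 3 lower on the deposited scores and to 8 higher and 0 lower with MAD scaling. Of 18 clock and glucocorticoid genes 5 rose and 4 fell, with the clock output genes Dbp higher by 0.77 ± 0.13 and Hlf lower by 0.88 ± 0.07, while the mean over each gene's probes gave 4 higher and 5 lower, the deposited scores 12 higher and 3 lower and MAD scaling 12 higher and 1 lower.

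Signalling genes are given by pathway, to be read against the 27.9% of rises and 21.6% of falls of all genes. The deposited scores and MAD scaling also shifted all genes, to 5269 and 6818 rises among 12210. Id1, an inhibitor of differentiation and a target of BMP signals, scored 1.25, 1.22 and 1.26 at P7, against 3.93, 3.62 and 3.63 at P0, a fall of 2.49 ± 0.20 that exceeded the wild-type fall (difference −1.18, adjusted p = 0.0134). Of 28 genes of the TGF-beta, BMP and activin pathway 8 rose and 6 fell (28.6% and 21.4%, near the shares of all genes), with Smad6 lower by 0.53 ± 0.08 and the latent TGF-beta binding protein gene Ltbp1 higher by 0.89 ± 0.13. Of 20 Wnt genes 4 rose and 5 fell. That balance turned to 7 higher and 3 lower on the deposited scores and to 10 higher and 2 lower with MAD scaling. Above the wild-type week lay 6 of the 20 (30.0%, against 7.15% of all genes). Rspo3, a Wnt agonist, scored 0.68, 0.44 and 0.20 at P7, against −0.67, −0.91 and −0.69 at P0 (1.20 ± 0.10, at least 0.43), above the wild-type week by 0.79 (adjusted p = 0.00285). In the hedgehog pathway 4 of 10 rose (40.0%), and 4 lay below the wild-type week (40.0%, against 5.86% of all genes), which MAD scaling turned to 2 below and 6 above. Dhh, a ligand that granulosa cells send to theca precursors, rose by 0.53 ± 0.09, less than in the wild type (difference −0.79, adjusted p = 0.00188). The insulin-like growth factor binding protein genes Igfbp7 (1.02 ± 0.14), Igfbp6 (0.91 ± 0.11) and Igfbp4 (0.83 ± 0.11; other probe 0.07) rose among 14 genes of that system, of which 4 rose and 3 fell, and Igfbp2 fell by 0.72 ± 0.18. The calls of Igfbp7 and Igfbp2 were lost on the deposited scores (0.03, adjusted p = 0.92, and −0.32, adjusted p = 0.155) and with MAD scaling (1.21, adjusted p = 0.373, and −0.33, adjusted p = 0.673), and that of Igfbp4 with MAD scaling (2.07, adjusted p = 0.0613). In the Notch pathway 2 of 15 rose and 4 fell, which turned to 7 higher and 3 lower on the deposited scores and to 7 higher and 2 lower with MAD scaling.

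Interferon response genes rose in 9 of 26 and fell in 4 (34.6% and 15.4%, against 27.9% and 21.6% of all genes). The knockout week lay above the wild-type week at 3 of the 26 and below it at 3 (11.5% each). Of the genes named next, Ifi27l2a and Gbp2b are not in that list and were named by rule for the size of their differences. Gbp2, a guanylate-binding protein induced by interferon, scored 2.40, 2.67 and 2.65 at P7, against 0.89, 1.0 and 0.90 at P0 (1.64 ± 0.12), with wild-type means of 1.59 at P7 and 1.56 at P0 (difference between weeks 1.61, adjusted p = 4.36e-05). Ifi27l2a, an interferon-induced mitochondrial protein gene, scored 2.56, 2.66 and 2.47 at P7, against 0.39, 0.82 and −0.02 at P0 (2.17 ± 0.17), and its wild-type mean was 0.41 at both ages (difference 2.17, adjusted p = 5.3e-05). Gbp2b differed from the wild-type week by 1.89 (adjusted p = 2.36e-06). Its knockout scores were 0.27, 0.20 and 0.06 at P7, against −0.54, −0.45 and −0.23 at P0 (0.58 ± 0.10, at least 0.17).

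Several of the largest single changes lie outside these groups. Pdrg1, a prefoldin-like gene, scored −0.66, −0.60 and −0.51 at P7, against 2.16, 2.08 and 2.08 at P0, a fall of 2.69 ± 0.10 (at least 2.50, adjusted p = 3.14e-10) and the steepest of the week. Esrp1, an epithelial splicing factor, fell by 1.86 ± 0.31 in the knockout and averaged 3.26 at P7 and 2.73 at P0 in the wild type (difference −2.39, adjusted p = 0.00295). Ybx2, which stores mRNA in germ cells, fell by 1.82 ± 0.12, with −0.73 and −0.00 at its other probes, and Pnrc2, a nuclear receptor coactivator, by 1.91 ± 0.11. Among the rises, Vldlr, a lipoprotein receptor, rose by 2.06 ± 0.13, with 0.31 to 2.35 at its other 4 probes. The chemokine genes Ccl21a (1.82 ± 0.27) and Ccl21c (2.01 ± 0.27, at least 1.45) are near-identical copies, so their probes may not be separate measures. Sspn, a dystrophin-complex gene, scored 2.64, 1.63 and 2.51 at P7, against 1.26, −0.54 and −0.61 at P0 (2.22 ± 0.66), a call that was lost without P0 replicate 3 (1.90, adjusted p = 0.0515). Zbtb7a (1.92 ± 0.11, at least 1.83) rose at 1 probe, and its other probe gave 0.02. Asb2, a ubiquitin ligase subunit of muscle, rose by 1.78 ± 0.20 (at least 1.28).

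Outside the oocyte growth list, 4 of the genes whose knockout week lay furthest below the wild-type week were below background in the knockout at both ages. Their difference mainly reflects the wild-type week. These were Khdc1c (−2.86), Gbx2 (−2.53), Fbxw15 (−2.47) and Pramel25 (−2.45), with wild-type P7 means of 2.78, 2.77, 2.62 and 1.67. Elobl differed by −2.79, a sign that turned on ranks (12 percentile units, adjusted p = 0.352), and Ezhip, an inhibitor of Polycomb repression in germ cells, by −2.49, where Ezhip itself fell in the knockout (−0.82 ± 0.16). On the other side Ptn, the growth factor pleiotrophin, rose by 0.96 ± 0.17 and lay above the wild-type week by 1.54 (adjusted p = 0.000836). Gstm6, a glutathione transferase gene, lay above it by 1.63 and Tm7sf3, a membrane protein gene, by 1.85.

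**Figure D5:**
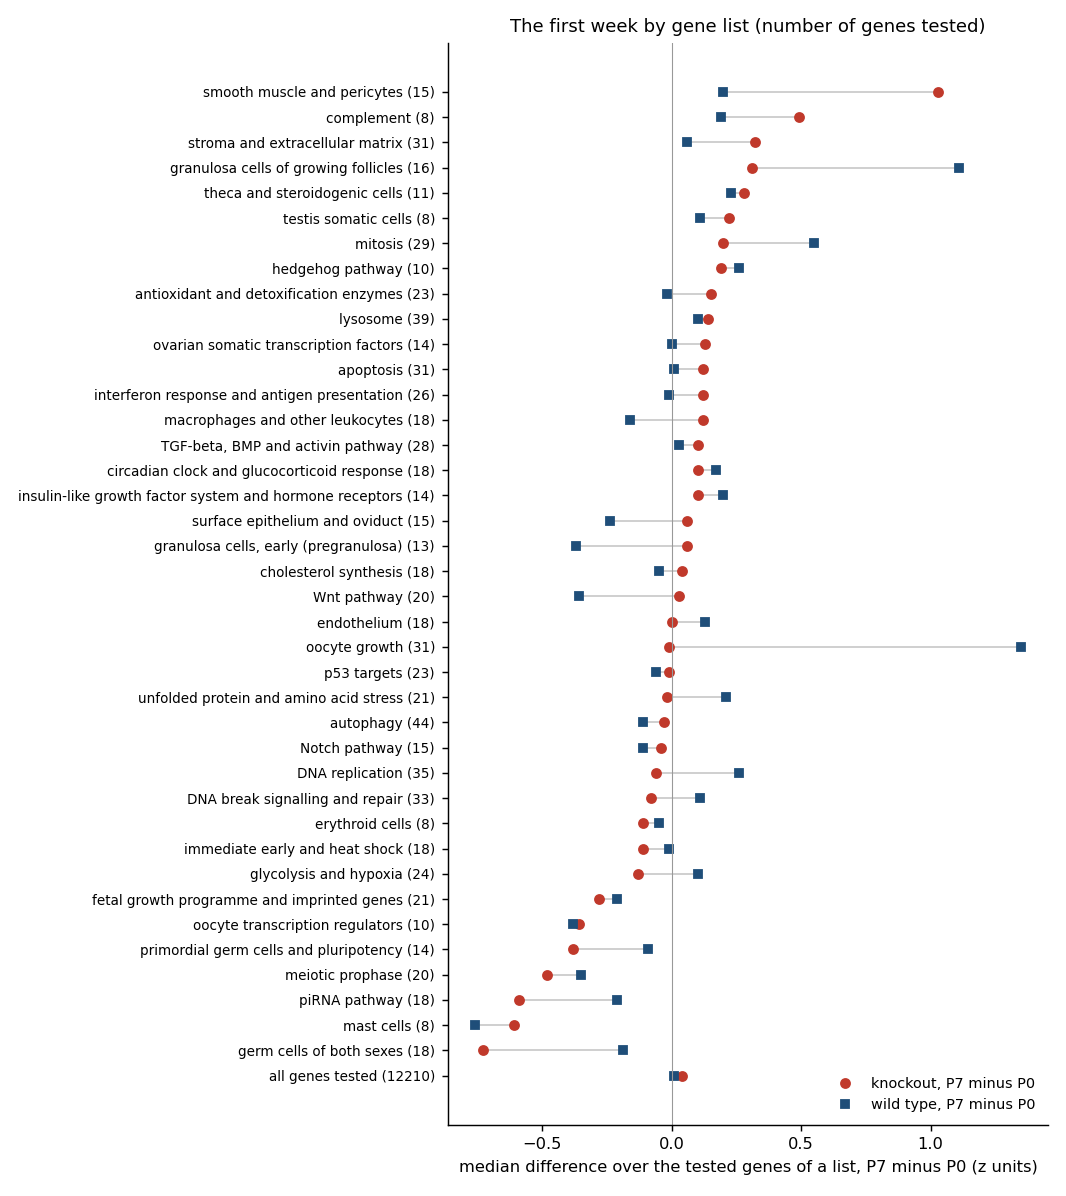
Median difference between P7 and P0 in z units (horizontal axis) over the tested genes of each list with at least 8 tested, for the knockout (circles) and the wild type (squares), ordered by the knockout median with all genes at the bottom; the number of genes tested stands in parentheses. Germ-cell genes lie lowest in the knockout at −0.73 and smooth muscle genes highest at 1.03, and oocyte growth genes show the widest gap, −0.01 in the knockout and 1.35 in the wild type.

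The plot of medians by list sets the knockout week beside the wild-type week. Both weeks rose at 1922 genes and fell at 1780, and at 143 they were called in opposite directions. The lists were compared by counts and medians only, and differences between lists were not tested.

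Further calls of genes named above depended on the scaling. In the knockout week MAD scaling ended the calls of Lhx8, Dppa5a, Foxo3, Dppa3, Btg4, Ccno, Tle6, Acta2, Tcf21, Csf1r, Pecam1, Ctrb1, Uhrf1, Map1lc3b, Ulk1, Sqstm1, Atp6v1h, Brca2, Fancd2, Mdm2, Jun, Pgk1, Gclm, Smad6 and Ezhip, each with its direction kept. The deposited scores ended those of Lhx8, Dppa5a, Foxo3, Dnmt1, Amh and Star, and ranks those of Kitl, Rrm2, Igf2, Msmo1 and Sspn. The mean over probes ended those of Atg3, Cdc20 and Nr5a2, and array weights that of Cyp17a1. Quantile normalization over probes above background on all arrays ended those of Lhx8, Foxo3 and Zbtb7a. For the difference between the weeks, ranks ended the calls of Trp63, Rspo3, Dhh, Id1, Khdc1c, Fbxw15, Tm7sf3, Hsd17b1 and Pnliprp1. MAD scaling ended those of Nr5a2, Dhh, Id1 and Esrp1, and the deposited scores those of Dppa5a, Hsd17b1 and Cdc20. Array weights ended those of Tm7sf3, Hsd17b1 and Pnliprp1, and the mean over probes those of Hsd17b1 and Cdc20. The Hsd17b1 call was also lost with no filter on dim probes and without the trend of the spread. It was lost again with quantile normalization over probes above background on all arrays.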

How the data were processed

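Total RNA from knockout and wild-type ovaries at P7 and P0 was amplified from oligo-dT and hybridised to BeadChips, per the labels' protocols, with 3 animals per genotype and age. The submitters' processing notes name GenomeStudio 2011.1. The deposited values are a z score per probe and array, found from the values themselves, since every array is centred and scaled alike. Raw intensities and detection p-values were not used here, so signal depth is unknown and the number of arrays limits the precision. The design had assumed array intensities or log values, and the test was kept for scores.

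Scores were quantile-normalized over the 12 arrays. Background was, on each array, the 95th percentile of 1528 probes of olfactory, vomeronasal and trace amine receptor genes. The 23136 probes above it on at least 3 arrays were kept, and the brightest probe stood for each gene. Of the 45281 probes 34885 had 1 gene symbol, 18 several and 10378 none. Among 2234 called genes with another kept probe, that probe was called the opposite way in 482. Groups were compared with limma 3.58.1 in R 4.3.3, in a 4-group model with 8 residual degrees of freedom, a trend of the spread and Benjamini-Hochberg adjustment over 12210 genes. The fit was tested on simulated data. For a single value, an exact permutation test of 3 against 3 cannot go below 0.1.

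Genes named by rule are the 15 largest differences in each direction of the knockout week and the 10 largest in each direction of the difference between genotypes, together with members of 43 lists (1011 genes) chosen by role. The members and lists were chosen with earlier results of these data known. Alternatives were other scalings and filters, the mean over probes, array weights, the knockout arrays alone, a replicate block and leaving out each array. Left out were 48 columns of values that match no sample used here. Promoter windows came from RefSeq on GRCm38.p6.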

Additional observations from a re-analysis of the deposited data

Results flagged for a closer look

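The knockout week differed from the wild-type week, by the limma test of the difference itself, at 1589 genes. Among the genes named, differences are the knockout week minus the wild-type week in z units, and each passed that test.

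Germ-cell genes lay below the wild-type week, with Tex19.2 at −2.61, Tex19.1 at −2.45, Dppa5a at −2.00, Dazl at −1.38, Nr6a1 at −1.21 and Sohlh1 at −1.07. So did the oocyte growth genes Oosp1 (−2.94), E330034G19Rik (−2.82), Bmp15 (−2.63), Gdf9 (−1.72), Zp3 (−1.58) and Btg4 (−1.30). Trp63 lay above the wild-type week at 0.93. Outside these groups the knockout week lay below at −2.86 for Khdc1c, −2.79 for Elobl, −2.53 for Gbx2, −2.49 for Ezhip, −2.47 for Fbxw15 and −2.45 for Pramel25, and Esrp1 gave −2.39. Oosp1, E330034G19Rik, Bmp15, Khdc1c, Gbx2, Fbxw15 and Pramel25 were below background in both knockout groups. They were tested only because of the wild-type arrays, and their difference mainly reflects the wild-type week.

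Granulosa-cell genes split. Gng13 lay above the wild-type week at 2.10, while Nr5a2 (−1.21), Hsd17b1 (−1.08), Amh (−0.92) and Dhh (−0.79) lay below it. The Hsd17b1 difference missed the threshold when any 1 of 9 arrays was left out, with values of −0.81 to −1.14. Dnmt1 (−2.04), Id1 (−1.18) and Cdc20 (−0.74) also lay below.

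Smooth muscle genes lay above, with Actg2 at 2.21, Myh11 at 1.40, Smtn at 1.14 and Tagln at 1.11, and so did Loxl1 at 1.09, Ptn at 1.54, Upk1b at 1.39 and Rspo3 at 0.79. The interferon-induced genes Ifi27l2a, Gbp2b and Gbp2 gave 2.17, 1.89 and 1.61, while of the 26 interferon response genes 3 lay above and 3 below. Cela1 gave 2.39 and Gstm6 1.63. Pnliprp1 gave 1.96, a call lost without knockout P7 replicate 2, wild-type P7 replicate 2 or wild-type P0 replicate 1 (1.62 to 1.66). Tm7sf3 gave 1.85, a call lost without knockout P7 replicate 2 (1.73, adjusted p = 0.0502).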

How the results depend on the processing

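The 6042 calls of the knockout week ranged between 5047 and 6179 when 1 array was left out (rises 2825 to 3486, falls 2212 to 2693), and the 1589 calls of the difference between genotypes between 912 and 1763 (above 459 to 966, below 453 to 797). The lowest came without knockout P7 replicate 1 (912, with 459 above and 453 below), and without replicate 2 there were 973 (490 above). Without wild-type P7 replicate 2 or 3, 575 or 548 lay above. Rises of the knockout week numbered 5269 on the deposited scores and 6818 with MAD scaling, falls 999 with MAD scaling and 4753 with no filter on dim probes, where 19057 genes were tested. With MAD scaling the difference between genotypes was called at 6953 genes, 6520 above and 433 below. Quantile normalization over probes above background on all 12 arrays, chosen after seeing the data, tested 7242 genes and called 3217 (1653 rises, 1564 falls), and 887 for the difference (449 above, 438 below). Rises were 56.3% of calls in the knockout week, 44.8% with no filter.

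For 155 named genes the knockout week had 3812 values under other settings, of which 3697 kept direction and side of the threshold, 71 were no longer past it, 41 passed it and 3 turned, namely Dcn on deposited scores (−0.45) and with MAD scaling (−0.16) and Dnmt1 with MAD scaling (0.35). For 48 genes the difference between genotypes had 1074 values, of which 11 turned. These were Gdf9 on deposited scores (0.23), ranks (15.67 percentile units) and MAD scaling (4.99), Zp3 on ranks (17.05) and MAD scaling (1.50), Elobl on ranks (12), and, with MAD scaling, Cdc20 (2.27), Dppa5a (1.78), Hsd17b1 (1.76), Sohlh1 (1.69) and Dnmt1 (0.18). The cause was not tested.

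The replicate number pairs no samples here. Deviations from the group means of same-numbered knockout arrays correlated at −0.050, 0.014 and 0.000. The fit with the replicate block called 5987 genes in the knockout week and 1483 for the difference, and among named genes the Amh call was lost (0.20, adjusted p = 0.050). Scores carry no fold scale, and genes near background have less certain values.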

Other observations

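Genes of the testis and of red blood cells, which the report has not described, were looked at in the same fit. Of 8 genes of testis somatic cells 4 rose and 1 fell, with a median of 0.22, against 0.11 in the wild-type week. Gdnf, a growth factor known from Sertoli cells, scored 0.81, 0.84 and 0.97 at P7, against 0.33, 0.05 and 0.10 at P0 (0.71 ± 0.12), and its wild-type week was 1.54. Dmrt1, a transcription factor of testis and germ cells, scored −0.47, −0.42 and −0.31 at P7, against 0.16, 0.14 and 0.19 at P0 (−0.56 ± 0.10). Sox9, the switch gene of Sertoli cells, scored 0.75, 1.20 and 1.07 at P7, against 1.03, 1.46 and 1.52 at P0, and did not pass the test (−0.33 ± 0.14, limma adjusted p = 0.0628), though it did without knockout P7 replicate 2 (−0.43) or P0 replicate 1 (−0.48).

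Of 8 erythroid genes none rose (0 at an unadjusted p under 0.05) and 1 fell, with a median of −0.11, while the deposited scores gave 1 higher and 4 lower and MAD scaling 3 higher and 3 lower. The fall was in Epor, the erythropoietin receptor (−0.46 ± 0.08), a call lost with MAD scaling (−0.44, adjusted p = 0.102). The alpha globin gene Hba-a1 scored 5.28, 5.07 and 5.37 at P7, against 5.91, 5.07 and 5.13 at P0, with knockout P0 replicate 1 highest (−0.13 ± 0.23, adjusted p = 0.665), but it was lower on the deposited scores (−2.40, adjusted p = 9.88e-06) and with MAD scaling (−6.14, adjusted p = 0.000939).

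Of 14 transcription factor genes of ovarian somatic cells 3 rose and 1 fell. Osr1, of the gonadal mesenchyme, scored 0.09, 0.31 and 0.29 at P7, against −0.52, −0.59 and −0.67 at P0 (0.82 ± 0.09, at least 0.23), with a wild-type week of 0.30. Runx1, of pregranulosa cells, scored 1.17, 1.01 and 1.22 at P7, against 0.26, 0.64 and 0.71 at P0 (0.60 ± 0.12), with a wild-type week of −0.02.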
